A study of Mus musculus with 2 samples.

Results

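Spp1 encodes osteopontin, and the cells described here are the natural killer (NK) and T cells that still held Spp1 transcripts in MC38 tumours after Spp1 had been removed from the myeloid cells. The gene is 1 of 55357 listed. It was chosen by its measured values in these libraries, so its levels and the genes that accompany it are given as descriptions, with no test. Cells were taken where the complement genes C1qa, C1qb and C1qc, made by macrophages, took under 0.3% of the cell's unique molecular identifiers (UMIs, 1 per captured transcript). Of those, NK cells had at least 2 UMIs of Ncr1 and Klrb1c and at most 1 UMI of the Cd3 genes, and T cells had at least 2 UMIs of Cd3d, Cd3e and Cd3g. The NK gate held 214 cells of 8724 in the control library and 207 of 13915 in the Lyz2-icre library, and the T gate held 659 and 661.

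MC38 is a mouse colon carcinoma line. CD45-positive, 7-AAD-negative (live) leukocytes were sorted from MC38 tumours of SPP1fl/fl mice, the controls, and of SPP1fl/fl-Lyz2-icre mice, in which Cre under the Lyz2 gene acts in macrophages, monocytes and neutrophils. Both genotypes carried the floxed Spp1 alleles. There was 1 library per genotype, of 10x Genomics 3' V3 chemistry, and neither the age of the mice nor their number per library was given. No difference between genotypes could therefore be tested. All intervals are 95% counting intervals, which leave out the spread between mice and are too narrow where a few cells hold most UMIs.

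Osteopontin is a secreted phosphorylated glycoprotein that binds CD44 and integrins such as those containing Itgav. It is best known in tumours as a product of macrophages, but it was also described early as a gene switched on when T cells are activated. Cytotoxic NK and CD8 T cells kill through perforin, which opens the target membrane, and granzymes, the serine proteases that enter through it. In the mouse, Gzmc, Gzmd, Gzme, Gzmf and Gzmg are close relatives of Gzmb that lie next to each other.

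Spp1 (ENSMUSG00000029304) spans chromosome 5, 104435118 to 104441050, on the plus strand of mm10 in the GENCODE vM21 annotation. The granzymes that accompanied it most closely lie in 117031 bases of chromosome 14, from 56117626 to 56234656, all on the minus strand. The 250 bases upstream of the start of Spp1 and of 2 of these granzymes are shown because the genes were found together in the same cells. Capitals mark the core motif of the RUNX factors, TGTGGT or its reverse complement, of which Runx3 is known in cytotoxic lymphocytes. The sequences are from RefSeq, build GRCm38.p6, each 5′ to 3′ on the gene's strand, at chr5:104434861-104435110 for Spp1, chr14:56132594-56132843 for Gzmd and chr14:56234658-56234907 for Gzmc.
Spp1: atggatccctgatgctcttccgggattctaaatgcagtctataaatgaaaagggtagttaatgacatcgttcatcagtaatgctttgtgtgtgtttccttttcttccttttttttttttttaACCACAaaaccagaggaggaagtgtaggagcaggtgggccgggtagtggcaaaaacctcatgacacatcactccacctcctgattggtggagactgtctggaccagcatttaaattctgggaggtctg
Gzmd: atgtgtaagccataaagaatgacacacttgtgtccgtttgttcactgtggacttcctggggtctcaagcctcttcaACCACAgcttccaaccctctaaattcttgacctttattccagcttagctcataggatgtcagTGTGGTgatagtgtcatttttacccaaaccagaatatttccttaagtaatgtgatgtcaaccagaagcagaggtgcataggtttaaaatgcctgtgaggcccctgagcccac
Gzmc: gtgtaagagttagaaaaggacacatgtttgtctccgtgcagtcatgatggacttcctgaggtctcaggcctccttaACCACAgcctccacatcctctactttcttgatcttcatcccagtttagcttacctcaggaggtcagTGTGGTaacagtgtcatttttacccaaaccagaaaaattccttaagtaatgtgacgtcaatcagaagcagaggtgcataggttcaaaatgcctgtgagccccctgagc
Spp1 held 1 match, starting 128 bases before the start. Each of Gzmc, Gzmd, Gzme, Gzmf and Gzmg held 2. On either strand, 4614 of 32851 upstream stretches of this length held the motif. The T-box letters GGTGTGA (3.33% of stretches) and the AP-1 letters TGANTCA (6.75%) had no match in these 6 windows. A match describes letters and not a site in use.

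The gates were checked against lineage markers, as the gene's UMIs scaled to a common total (CPM). In the Lyz2-icre library the NK gate had Ncr1 at 519.5 CPM and Cd3e at 0, and the T gate had Cd3e at 510.8 CPM and Ncr1 at 20.5 CPM. Cd79a of B cells was at 0 in both gates of that library. RNA of macrophages was present in every gate: a list of 14 macrophage markers summed to 3141 CPM in NK cells of the control library and 1618 CPM in those of the other, and to 3590.0 and 2999 CPM in T cells, with no marker at 0. The list holds Lyz2, the gene under which Cre stands, and Lyz2 itself differed between the libraries in macrophages, at 11723 CPM in the control and 4193 CPM in the Lyz2-icre library, where C1qa was at 5676 and 5916 CPM. In NK cells Lyz2 was at 1359 and 194.0 CPM and C1qa at 154.1 and 201.4 CPM, so the sum does not measure macrophage RNA alike in both libraries. Median depth in the gates was 6798.5 and 4535 UMIs per NK cell and 4688 and 3122 per T cell, control first, so a share of cells is given with every cell randomly reduced to 2000 UMIs, shallower cells left out. The 2 libraries had 43 barcodes in common, and none was a lymphocyte in both.

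Spp1 was nearly absent from the macrophages of the Lyz2-icre library and present in its lymphocytes. In cells with at least 1% C1q UMIs, taken as macrophages, Spp1 was at 448.7 CPM (442.6 to 454.9) in the control library and at 4.25 CPM (3.73 to 4.82) in the Lyz2-icre library, a ratio of 0.00947. In the NK gate it was at 1070.3 CPM (1022 to 1120.2, from 1847 UMIs) and 617.0 CPM (571.2 to 665.5, from 671 UMIs). In the T gate it was at 347.9 CPM (330.1 to 366.5) and 213.4 CPM (196.6 to 231.3). In the control library macrophages therefore stood between NK and T cells, and in the Lyz2-icre library both lymphocyte gates stood above the macrophages. The floxed exons were not given, so a 3' tag may lie outside the deleted part, although the tag did follow the deletion in macrophages.

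At 2000 UMIs per cell, 34.8% of control NK cells (28.3% to 41.7%, 72 of 207) and 28.2% of Lyz2-icre NK cells (22.01% to 35.1%, 55 of 195) had at least 1 Spp1 UMI. In the T gate the shares were 19.9% (16.8% to 23.2%, 125 of 628) and 10.5% (8.02% to 13.5%, 54 of 512). At full depth they were 56.1% and 40.6% of NK cells and 31.4% and 13.3% of T cells. The macrophages of the Lyz2-icre library, read the same way and sequenced to a median of 7438.5 UMIs, gave 0.442% (30 of 6787), so both lymphocyte shares lay above that of macrophages in the same library. Cells with exactly 1 UMI made up most of the gap between libraries in T cells, at 12.3% against 5.08%. With 2 or more UMIs, T cells held Spp1 in 7.64% (5.69% to 10.0%) of control and 5.47% (3.66% to 7.81%) of Lyz2-icre cells, and these intervals overlap.

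**Figure D1:**
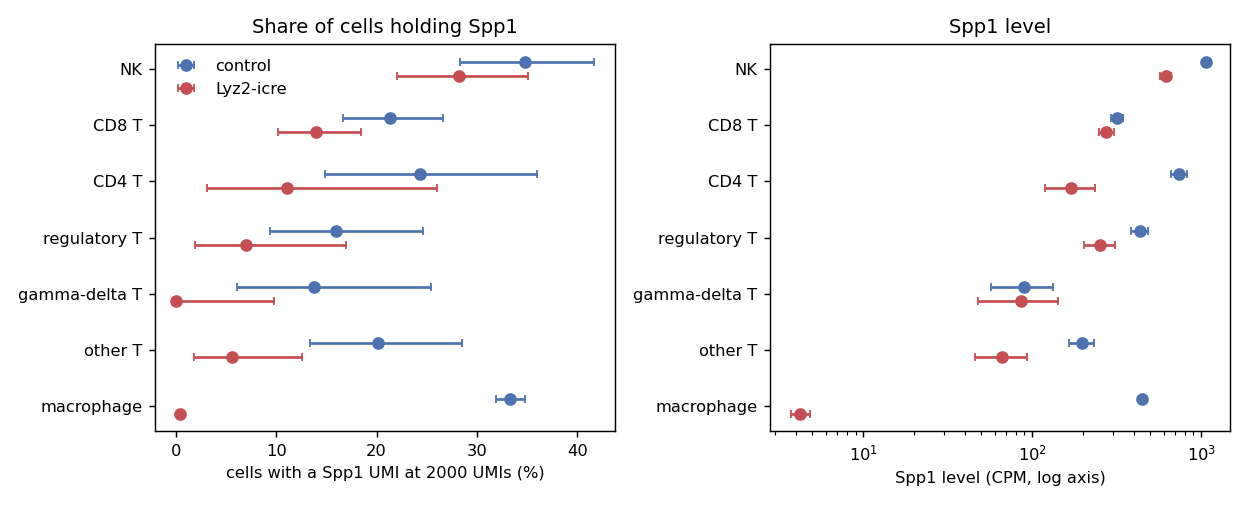
Left, the share of cells with at least 1 Spp1 UMI after each cell was drawn to 2000 UMIs, with Clopper-Pearson intervals. Right, the Spp1 level in CPM on a log axis, with Poisson intervals. Rows are the lymphocyte gates and macrophages, in blue for the control and red for the Lyz2-icre library. Macrophages are at 448.7 CPM in the control and 4.25 CPM in the Lyz2-icre library, and NK cells of the Lyz2-icre library at 617.0 CPM.

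Among T cells of the Lyz2-icre library, CD8 T cells carried most of the Spp1. They were 344 of the 661 T cells and had 1511988 of the 2773879 UMIs of all genes in the T gate. Of the 592 Spp1 UMIs there they held 416, at 275.1 CPM (249.3 to 302.9), beside 316.3 CPM (291.7 to 342.4) in the control library. The share holding Spp1 was 13.9% (10.2% to 18.4%) of CD8 T cells against 5.62% (1.85% to 12.6%) of other T cells, and these intervals overlap. Other T cells are those left outside the CD8, CD4, regulatory and gamma-delta gates. CD4 T cells without Foxp3 were at 169.1 CPM in 48 cells, and their interval of 118.5 to 234.2 lay under that of CD8 T cells. Regulatory T cells, marked by Foxp3, were at 251.3 CPM, but 5 of their 77 cells held all 91 UMIs. Gamma-delta T cells had 15 UMIs in 2 of 45 cells, and 0 of 36 held Spp1 at 2000 UMIs, which allows a share of up to 8.33%. In order of level the gates ran NK, CD8, regulatory, CD4, gamma-delta and other T, and the intervals of CD8 and regulatory, of regulatory and CD4, of CD4 and gamma-delta and of gamma-delta and other T overlapped. At 2000 UMIs 11.1% (3.11% to 26.1%) of CD4 and 7.02% (1.95% to 17.0%) of regulatory T cells held Spp1, which overlap CD8 T cells. In the control library CD4 (743.9 CPM) and regulatory T cells (431.8 CPM) stood above CD8 T cells. There 5 cells held 83.8% and 85% of their Spp1 UMIs.

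Spp1 was held very unevenly. In the Lyz2-icre NK gate 123 of 207 cells had no Spp1 UMI, 26 had 1 and 14 had 10 or more, and those 14 held 69.2% of the UMIs. The highest NK cell had 110 UMIs there and 331 in the control library. In the T gate of the Lyz2-icre library 23 of 661 cells had 10 or more and held 73.6% of the UMIs, with 43 in the highest cell. A level in CPM is thus set by few cells.

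The cells with most Spp1 differed in kind between the libraries. Among the 10 cells with most Spp1 UMIs, the macrophage markers took at least 0.5% of UMIs in 5 NK and 9 T cells of the control library, and in 0 NK cells and 1 T cell of the Lyz2-icre library. With Lyz2 not counted, such cells were 2 NK and 5 T cells in the control library, and again 0 NK cells and 1 T cell in the other. In the control NK gate, the cells ranked 2, 3 and 5 had macrophage markers at 0.553%, 2.77% and 1.61% of UMIs and no UMI of Gzmc to Gzmg. The cells ranked 1 and 4 had 1297 and 2595 UMIs of these granzymes and macrophage markers at 0.0581% and 0.0621%. In the Lyz2-icre NK gate all of the first 5 cells had granzyme UMIs, from 30 to 1704, and macrophage markers at 0.0317% to 0.0836%. Granzyme UMIs were common in that gate, where 139 of 195 cells had a Gzmc UMI at 2000 UMIs per cell. In the Lyz2-icre T gate the cells ranked 1 and 5 had 15 and 169 UMIs of Gzmc to Gzmg. Those ranked 2, 3 and 4 had 0, and ranks 2 and 3 were regulatory T cells.

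**Figure D2:**
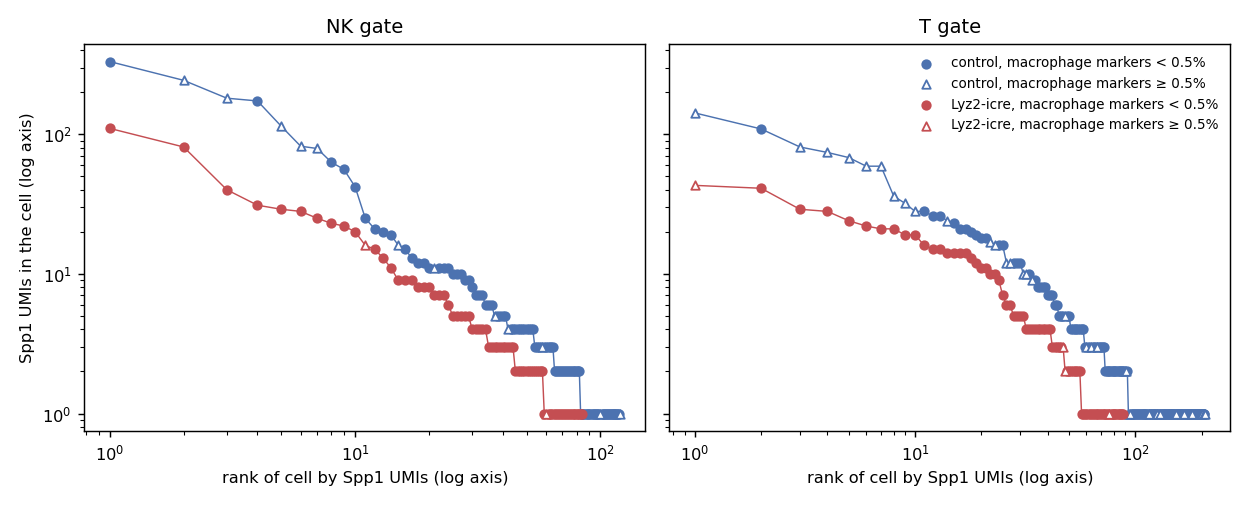
Spp1 UMIs of each cell that held any (log axis) against the rank of the cell (log axis), for the NK gate (left) and the T gate (right), control in blue and Lyz2-icre in red. Open triangles are cells in which macrophage markers took at least 0.5% of UMIs. They fill 9 of the first 10 places in control T cells (5 if Lyz2 is not counted) and 1 of 10 in Lyz2-icre T cells.

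The ratio of Spp1 between the libraries changed with these cells. Over all cells the Lyz2-icre over control ratio of Spp1 CPM was 0.576 (0.527 to 0.630) in NK and 0.613 (0.556 to 0.676) in T cells. Cells with at least 0.5% macrophage marker UMIs were 7.48% of control NK and 10.5% of control T cells, but held 40.1% and 50.3% of the Spp1 UMIs there. In the Lyz2-icre library such cells were 5.31% and 9.83% of the gates and held 2.53% and 8.28%. Without them the ratio was 0.891 (0.808 to 0.982) in NK cells, 1.15 (1.03 to 1.29) in T cells and 1.26 (1.09 to 1.46) in CD8 T cells, so that the direction of the CPM ratio turned in the T gate. It did not turn when Lyz2 was not counted in the list: the ratio was then 0.645 (0.588 to 0.707) in NK cells, 0.773 (0.696 to 0.858) in T cells and 0.881 (0.770 to 1.01) in CD8 T cells. By the share of cells holding Spp1 the direction did not turn with Lyz2 counted either. Without the cells at 0.5% or more, 18.3% (15.2% to 21.8%) of control and 11.4% (8.62% to 14.7%) of Lyz2-icre T cells held Spp1, 20.3% and 14.3% of CD8 T cells, and 33.0% and 28.5% of NK cells. These ways of leaving cells out were chosen after the data had been seen. The part that macrophage RNA plays in the difference was not tested beyond these values.

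**Figure D3:**
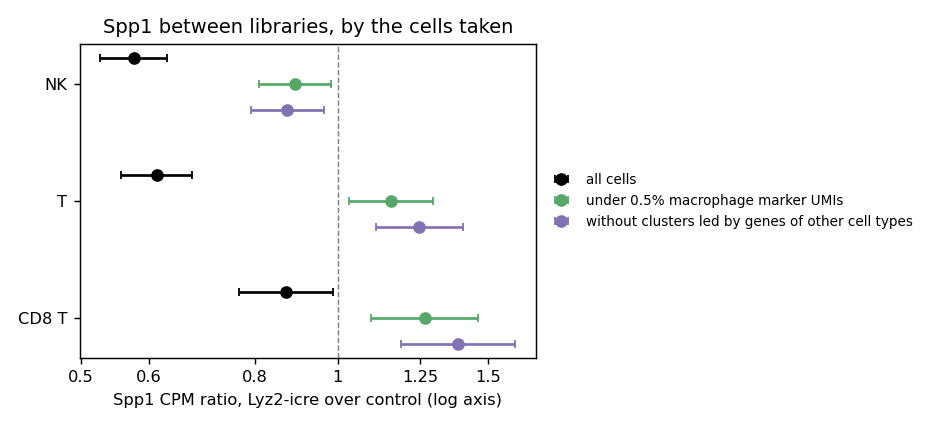
Ratio of Spp1 CPM, Lyz2-icre over control (log axis), with conditional binomial intervals. The gates are NK, T and CD8 T. Black points take all cells, green points leave out cells with at least 0.5% macrophage marker UMIs, and purple points leave out clusters 5, 11 and 12, led by genes of phagocytes, dendritic or collagen-producing cells. The T gate moves from 0.613 over all cells to 1.15 and 1.246, while with Lyz2 not counted among the markers, which is not drawn, it is 0.773.

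Cells of both sexes were in each library, and the ratio also differed between them. By Xist and Y-linked UMIs, female cells gave 0.738 (0.664 to 0.818) in NK and 0.445 (0.385 to 0.513) in T cells, whereas male cells, of which there were 32 and 39 in the NK gates, gave 1.18 (0.891 to 1.55) and 1.53 (1.21 to 1.94). Cells with neither mark or both, 26 and 39 in the NK gates and 114 and 161 in the T gates, were left out. In NK cells both ratios lay above the 0.576 over all cells. The CPM ratio thus lay on opposite sides of 1 in female and male T cells, while the male NK interval included 1. In the Lyz2-icre library 5 cells held 80.9% of the male NK and 72.2% of the male T Spp1 UMIs. The share of cells holding Spp1 was lower in the Lyz2-icre library in both sexes. The Lyz2-icre minus control difference in share was -1.56 percentage points in female and -12.2 in male NK cells, and -7.23 in female and -10.7 in male T cells. Whether mouse, sex or genotype set it cannot be told apart with 1 library per genotype.

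Droplets also pick up free RNA, and the amount of Spp1 it would bring was read from genes that lymphocytes should lack. The Spp1 UMIs per UMI of the C1q genes, Lyz2 or Apoe in macrophages, applied to the UMIs of those genes in the gates, gave 0.161 to 0.214 Spp1 UMIs beside the 671 found in Lyz2-icre NK cells and 0.0816% to 0.338% of the 592 found in T cells. Collagen genes, read the same way from fibroblast or tumour cells, gave 2.80% in Lyz2-icre T cells, although the sort on CD45 should have removed fibroblasts and tumour cells. In the control library the macrophage genes gave 22.5 to 89.8 of 1847 NK UMIs and 74.3 to 211.6 of 1429 T UMIs. With the proportions of all cells outside the gates in place of macrophages, the macrophage genes gave at most 1.44% in Lyz2-icre and 28.3% in control T cells. Collagen genes then gave 110.9% of the Spp1 in control NK cells, a reading above the total found.

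Clusters of the gated lymphocytes, built without Spp1, showed where it lay. In the Lyz2-icre library cluster 2, of which 89 of 93 cells were NK and which Gzmg, Gzmd, Gzmc, Gzme and Gzmf led, had the highest level, 859.3 CPM, and held 33.3% of all lymphocyte Spp1 UMIs. Cluster 3, NK cells led by Klra8, Gzma and Eomes, was at 524.9 CPM, and cluster 9, cycling cells that were mostly NK, at 424.6 CPM. Cluster 7, cycling cells of which 59 of 76 were CD8 T, was at 442.9 CPM (48.1 CPM in the control library), and cluster 1, the main group of CD8 T cells with Pdcd1 and Lag3, at 284.3 CPM. At the other end, cluster 4, led by genes that include Lef1 and Tcf7 of naive and memory cells, had 0 Spp1 UMIs. Of its cells 0 of 61 held Spp1, which allows a share of up to 4.92%, against 8 of 90 in the control library. Cluster 8, led by Il17a, had 0 UMIs as well, with 0 of 35 cells, which allows up to 8.57%, against 10 of 65 in the control library.

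Cluster 10 stood apart from the cytotoxic cells. Over both libraries together it was led by genes that include Il13, Il5 and Il4, cytokines of type 2 immunity. Of its 16 Lyz2-icre cells 14 were CD4 T cells. At 2000 UMIs per cell, Il13 had 0 UMIs in T cells of the control library. In the Lyz2-icre library its 95 UMIs lay in 1.09% of T cells without Spp1, and 0 in those holding Spp1. The name of the cluster therefore does not describe each of its cells. Its Spp1 level was 493.6 CPM in the Lyz2-icre library and 950.8 CPM in the control library, with 26.7% (7.79% to 55.1%, 4 of 15) and 27.6% (12.7% to 47.2%, 8 of 29) of cells holding Spp1, while Gzmb and Gzmc were at 0 CPM in both and Gzmd to Gzmg together at 72.6 and 7.49 CPM. Spp1 was thus also found in T cells with no UMI of Gzmb or Gzmc. In the control library 37.9% of lymphocyte Spp1 UMIs lay in the 88 cells of cluster 5, led by Chil3, Mmp12 and Thbs1 of phagocytes, which was at 1073.9 CPM there and at 107.5 CPM in the Lyz2-icre library.

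The genes that separate Spp1-holding from Spp1-free cells were read within the Lyz2-icre library, at 2000 UMIs per cell and with Spp1 left out of the totals. A gene was compared where the higher group had at least 50 CPM and 20 UMIs, and was called higher or lower at 1.5-fold with an interval clear of 1, which is a size rule and not a test. In NK cells 46 of 1835 genes were higher in the 55 holding cells than in the 140 free cells (2.51%) and 109 were lower (5.94%). In T cells 78 of 2312 were higher in 54 holding than in 458 free cells (3.37%) and 154 were lower (6.66%). Since the minimum of 20 UMIs asks for a higher level in the smaller, holding group, lower genes could be called at lower levels, and the median log2 ratio over all compared genes was -0.22 in NK and -0.23 in T cells. Holding cells had been the deeper ones before drawing, with medians of 6060 against 4323 UMIs in NK and 4605.5 against 3648 in T cells.

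Granzymes of the Gzmc to Gzmg group led the NK genes. Gzmd was at 2413 CPM in Spp1-holding and 175.0 CPM in Spp1-free NK cells, a ratio of 13.8 (10.1 to 19.1), with a UMI in 34.5% of holding and 7.14% of free cells. Gzme was 8.97-fold higher (5.80 to 14.3) and Gzmf 4.97-fold (3.87 to 6.41). Gzmc was at 15761 against 6429 CPM, 2.45-fold higher (2.29 to 2.62). Gzmg had the highest ratio, but its 110 UMIs in holding cells stood against 2 in free cells, which leaves its ratio between 37.9 and 1172, and drawn to 3000 UMIs it was 8.22-fold (5.51 to 12.6). These genes are close relatives, and how the authors' counting shared reads among them is not known here, so their sum is given too: Gzmd to Gzmg together were 9.58-fold higher (8.10 to 11.4). Without the 5 cells with most of these UMIs the sum was still 6.24-fold higher.

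The other high NK genes named here were less than 3-fold apart. Nrgn, which encodes the calmodulin-binding neurogranin, was 2.19-fold higher (1.42 to 3.36). Pgk1 of glycolysis was 2.18-fold higher (1.51 to 3.13). Gspt1, Napsa, Sec62, Rapgef6, Rpn1, Rexo2 and AA467197 were 2.06- to 2.37-fold higher on 22 to 42 UMIs in holding cells. Of these, Sec62 was 0.815-fold in another random draw and Rexo2 0.923-fold at full depth, so neither is steady. In control NK cells Sec62 (0.458, 0.205 to 0.930) and Rapgef6 (0.470, 0.235 to 0.875) were called lower in holding cells.

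In T cells the same granzymes led, with more of the cytotoxic machinery. Gzme was at 862.8 CPM in Spp1-holding and 41.5 CPM in Spp1-free T cells, 20.8-fold higher (14.1 to 31.2), and Gzmd was 15.4-fold higher (11.1 to 21.6). Serpinb9b, a relative of the granzyme B inhibitor Serpinb9, was 11.5-fold higher (5.88 to 22.9). Gzmf was 6.67-fold and Gzmc 5.02-fold higher. Gzmd to Gzmg summed to 9.30-fold (8.08 to 10.7), to 10.02-fold in female and to 1.86-fold (1.15 to 2.89) in male cells, of which 10 held Spp1, and Gzmc was 0.543-fold in male cells. Prf1, perforin, was at 899.9 against 227.1 CPM, 3.96-fold higher (3.08 to 5.07), and 72.2% of holding against 22.1% of free T cells had a UMI of it.

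The remaining high T genes included inhibitory receptors and genes of dividing cells. Lag3 (2.95-fold, 1.81 to 4.66) and Havcr2 (2.75-fold, 1.62 to 4.50) encode inhibitory receptors of chronically stimulated T cells, and Klrh1 (3.48-fold) is a lectin-like receptor gene. H1f5 (3.57-fold), Rrm2 (3.57-fold, 2.04 to 6.05), Mcm7 (2.83-fold) and H1f2 (2.32-fold) belong to DNA replication and chromatin. Nrgn was at 788.5 against 263.1 CPM (interval of the ratio 2.31 to 3.85), and Cst7, the lysosomal cystatin F, was 2.57-fold higher (1.97 to 3.32). H1f2 had a UMI in 22.2% of holding and 21.8% of free cells, and in another random draw its ratio was 0.894. Rrm2 was at 0.843 in male cells alone.

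Part of the T contrast followed cell type, since 75.9% of Spp1-holding but 55.2% of Spp1-free T cells were CD8 T cells. Within CD8 T cells alone, 49 of 2020 genes were higher (2.43%) and 70 lower (3.47%). There Gzme was 15.2-fold (10.3 to 22.9), Gzmd 11.3-fold (8.09 to 16.1), Gzmf 4.89-fold and Gzmc 4.14-fold higher, Prf1 2.86-fold (2.18 to 3.74), Lag3 2.47-fold and Nrgn 2.11-fold. Havcr2, at 2.59-fold (1.40 to 4.58) on 18 UMIs in holding cells, and Rrm2, with an interval of 1.58 to 5.50 on 17 UMIs, were under the minimum of 20 UMIs and could not be called there. The granzymes thus separated the cells within the CD8 gate too.

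Part of the higher genes was shared by the 2 gates. Over all compared genes 2.51% were called higher in NK cells and 3.37% in T cells. Leaving out unnamed gene models and receptor segments, 11 genes were past the fold in both, 24.4% of 45 in NK and 14.3% of 77 in T cells: Gzmb, Gzmc, Gzmd, Gzme and Gzmf, Cst7, Nrgn, Ifitm2, the costimulatory receptor gene Tnfrsf9 (4-1BB), and Top2a and Tuba1b of dividing cells. Ranked by the lower of the ratios in the 2 gates, the genes most like Spp1 were Gzmd (13.8), Gzme (8.97), Gzmf (4.97), Gzmc (2.45), Nrgn (2.19), Top2a (1.86), Tubb4b (1.70) and Tuba1b (1.63). Gzmb reached 1.54 by this measure, with ratios of 1.54 in NK and 2.20 in T cells.

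**Figure D4:**
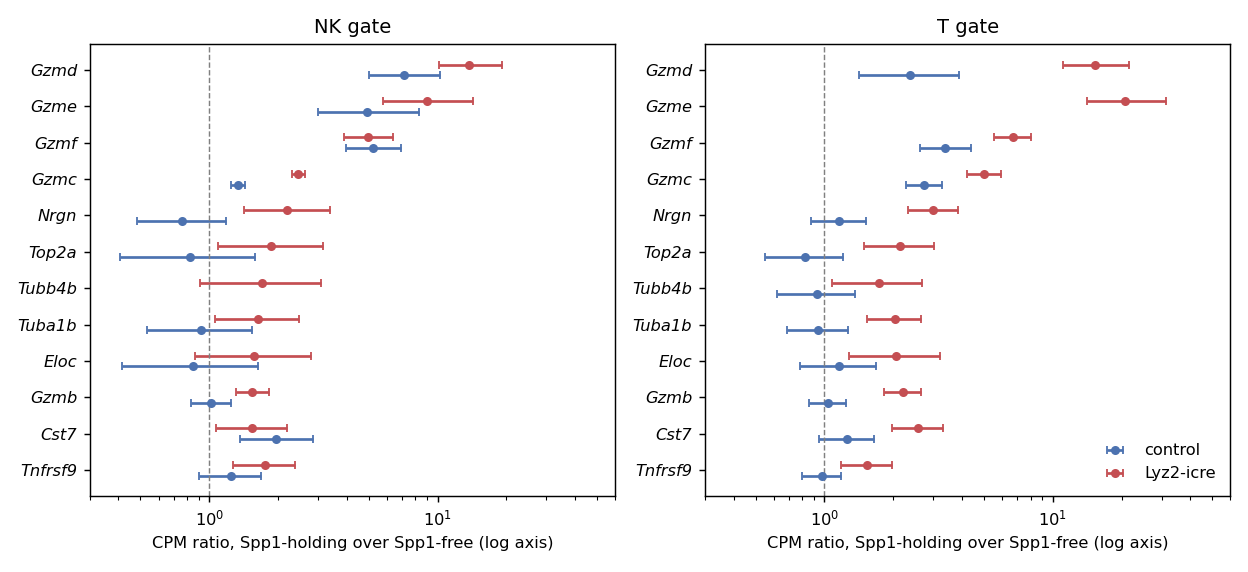
Ratio of CPM in Spp1-holding over Spp1-free cells (log axis) with conditional binomial intervals, for the 12 genes most like Spp1 in the Lyz2-icre library (red), and the same genes in the control library (blue, where they were abundant enough to be compared), in NK (left) and T cells (right). Gzmd, Gzme, Gzmf and Gzmc lie above 1 in red in both gates, while in T cells Nrgn, Top2a, Tubb4b and Tuba1b lie between 0.826 and 1.16 in blue.

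The granzyme pattern was also present in the control library, where Spp1 again defined the groups. In control NK cells, where 40 of 1955 genes were higher (2.05%) and 87 lower (4.45%), Gzmd was 7.11-fold (5.03 to 10.2), Gzme 4.90-fold, Gzmf 5.23-fold and Gzmg 10.0-fold higher, and Gzmc was 1.33-fold (1.24 to 1.43). In control T cells 128 of 3063 genes were higher (4.18%) and 123 lower (4.02%). Gzmf was 3.39-fold (2.62 to 4.37), Gzmc 2.73-fold, Gzmd 2.37-fold (1.41 to 3.89), and Serpinb9b 2.82-fold higher there, and the interval of Prf1 was 1.52 to 2.62. Gzme, at 1.57-fold (0.781 to 2.98), was not clear of 1. In control CD8 T cells 61 of 2318 genes were higher (2.63%) and 95 lower (4.1%). Apart from Gzmf in NK cells, these ratios were smaller than in the Lyz2-icre library, a difference that was not tested.

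Beyond the granzymes the control library repeated less. Of the 45 named NK genes called higher in the Lyz2-icre library, 43 could be compared in the control library, 24 lay above 1 there (55.8%, against 38.5% on the same side over all genes) and 8 were called, among them Cst7, Lgals3, Fkbp3 and Tomm22. Of the 77 T genes, 74 could be compared, 40 lay above 1 (54.1% against 40.9%) and 11 were called, among them Havcr2, Ccl3 and Ifitm2. Nrgn was at 0.762 in NK and 1.16 in T cells, and Rrm2 and H1f5 were at 0.393 and 0.588 in T cells, where Mcm7 was called lower in holding cells (0.408, 0.170 to 0.844). Macrophage markers moved with the groups in the control library: they were at 4320.0 CPM in holding and 2638 CPM in free T cells, with 3 of 8 higher, and at 2861 and 2119 CPM in NK cells, with 2 of 5 higher, although the median over NK cells was lower in holding cells, 1250.0 against 1500.0 CPM. Their part in the control contrast was not tested. In the Lyz2-icre library the list ran the other way, at 1481 against 2395 CPM in T and 1100.0 against 1425 CPM in NK cells, with 0 of 9 and 0 of 5 higher and Lyz2 (0.287-fold) and Apoe (0.519-fold) lower.

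Read the other way, the granzymes marked the cells in which Spp1 was common. In Lyz2-icre NK cells 59.0% (42.1% to 74.4%, 23 of 39) of those with a Gzmd to Gzmg UMI held Spp1, against 20.5% (14.5% to 27.7%, 32 of 156) of those without. In CD8 T cells the shares were 39.0% (26.5% to 52.6%, 23 of 59) and 7.66% (4.60% to 11.8%, 18 of 235). In the control library they were 52.6% and 30.8% of NK and 45.7% and 17.9% of CD8 T cells. The intervals with and without these granzymes were separate in the Lyz2-icre gates and in control CD8 T cells, and overlapped in control NK cells.

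Some single cytotoxic genes also sorted the Lyz2-icre cells, while for others the intervals overlapped. Among NK cells, 36.0% (28.0% to 44.5%) of those with a Gzmc UMI held Spp1 against 8.93% (2.96% to 19.6%) of those without. In control NK cells the 2 shares were 36.2% (28.2% to 44.8%) and 31.9% (21.2% to 44.2%), and overlapped. Among Lyz2-icre CD8 T cells Gzmc gave 34.3% (19.1% to 52.2%) against 11.2% (7.63% to 15.7%), and Prf1 gave 27.1% (19.3% to 36.1%) against 5.11% (2.36% to 9.49%). In control CD8 T cells Prf1 gave 25.9% against 18.3%, with overlapping intervals. Intervals also overlapped for 3 genes in Lyz2-icre NK cells. There Gzma gave 31.7% against 25.7%, Gzmb 32.8% (24.9% to 41.6%) against 18.75% (10.1% to 30.5%), and Prf1 31.9% against 22.8%. Gzmb in Lyz2-icre CD8 T cells gave 16.3% against 11.9%, again overlapping. In the Tcf7-positive CD8 T cells, those that keep a memory-like factor, 0 of 15 held Spp1 against 41 of 279 without Tcf7, and 0 of 15 allows a share of up to 20%, so the 2 could not be told apart.

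**Figure D5:**
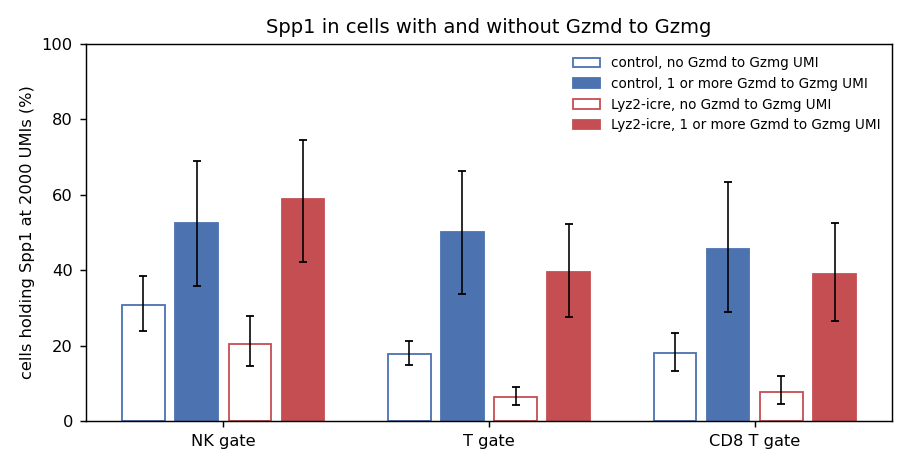
Share of cells holding Spp1 at 2000 UMIs, in cells with no UMI (open bars) and with 1 or more UMIs (filled bars) of Gzmd, Gzme, Gzmf and Gzmg, in the NK, T and CD8 T gates of the control (blue) and Lyz2-icre library (red). Bars start at 0 and error bars are Clopper-Pearson intervals. In Lyz2-icre CD8 T cells the share is 7.66% without and 39.0% with these granzymes.

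In NK cells the granzymes were more common the more Spp1 UMIs a cell had. Of Lyz2-icre NK cells with 0, 1 and 2 or more Spp1 UMIs, 11.4%, 21.4% and 63.0% had a Gzmd to Gzmg UMI, and the intervals of the first pair overlapped. In T cells the shares were 8.73%, 46.2% and 50%, so that there a single Spp1 UMI already went with the granzymes. In control T cells a single UMI went with 9.09%, near the 3.98% of cells with none, and 2 or more with 27.1%. For T cells with 1 Spp1 UMI the intervals of the libraries, 3.73% to 17.8% in the control and 26.6% to 66.6% in the Lyz2-icre library, were separate.

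Gene lists show how far the pattern reached in the Lyz2-icre library. Of 17 cytotoxic granule genes, 15 could be compared in NK cells, where 6 were higher and 0 lower (median log2 ratio 0.25). In T cells 9 of 13 were higher and 0 lower (median 0.86), namely Gzmb to Gzmf, Prf1, Serpinb9, Serpinb6b and Gzma, of which Gzma had all its 30 UMIs of holding cells in 1.85% of them. In CD8 T cells 6 were higher and 1, Gzma, lower (0 against 98 UMIs), but those UMIs lay in 10 of the 294 CD8 T cells. In NK cells Gzma was at 0.737 and Prf1 at 1.43, both short of 1.5-fold. Gzmb, the granzyme best known for killing, was 1.54-fold (1.30 to 1.82) in NK and 2.20-fold (1.82 to 2.66) in T cells, well short of Gzmd.

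Cytokine genes did not follow the granzymes. In NK cells 0 of 6 were higher and 3 lower, namely Ccl5 (0.155-fold, 0.104 to 0.225), Ifng (0.302-fold) and Ccl4. In T cells 2 of 11 were higher, Ifng (1.84-fold, 1.48 to 2.27) and Ccl3 (1.69-fold), and 3 were lower, Il17a, Ltb and Ccl5 (0.444-fold). In CD8 T cells 0 of 9 were higher, and Xcl1 and Ccl5 were lower.

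Among genes of chronic stimulation, 4 of 7 inhibitory receptor and exhaustion genes were higher in T cells, Lag3, Havcr2, Pdcd1 and Nr4a2, and 0 were lower, with a median log2 ratio of 0.61. Tox was at 0.971. Within CD8 T cells 1 of 8, Lag3, was higher and Cd160 was lower, and in NK cells 0 of 4 were called. Of 10 cell cycle genes 7 were higher in T cells (median 0.88), among them Rrm2 and Birc5 (2.27-fold), 4 of 12 in CD8 T cells and 1 of 9, Top2a (1.86-fold), in NK cells. In control T cells 0 of 13 cell cycle genes were higher and 4 were lower.

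The receptors of osteopontin showed little. Of 3 that could be compared in each gate, Itgav alone was called, at 1.55-fold (1.01 to 2.29) in T cells and 0.411-fold (0.125 to 1.07, not called) in NK cells, while Cd44 was at 0.885 in NK and 0.877 in T cells and Itgb1 at 0.888 and 0.695. None of the 4 other members of osteopontin's family of secreted mineral-binding proteins (Ibsp, Dmp1, Dspp and Mepe) was abundant enough to be compared in any gate. Effector transcription factors were nearly level: Irf8 was 1.93-fold higher in T cells, Ikzf2 was lower in both gates, and Id2 was at 1.14 and 1.44.

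Several further lists had few genes past the fold. Of the costimulatory list Tnfrsf9 was higher in both gates, at 1.75-fold in NK and 1.54-fold in T cells, and Cd69 (0.513-fold), Cd7 and Tnfrsf18 were lower in T cells. Klrd1 (2.03-fold) and Klrc1 were higher in T cells, and Klrb1c (0.584-fold) and Klrb1a in NK cells were lower. Of genes of naive and memory cells Satb1 was lower in T cells. Interferon-induced genes had 3 of 5 lower in T cells, Gbp4, Bst2 and Ly6a, and 0 of 4 called in NK cells. Immediate early genes had 3 of 11 lower in NK and 4 of 12 in T cells, with Zfp36 lower in both (0.581- and 0.322-fold). Pgk1 was the one glycolysis gene counted as higher, in NK cells. Of residency genes Inpp4b was higher and Tmem176a and Tmem176b lower in T cells, and Ckb and Gpr183 were lower in NK cells. Of NK maturation genes 0 of 3 were past the fold in NK cells and Ly6c2 was lower in T cells, and of the regulatory T list Ikzf2 alone was past it. Of T receptor genes Trdc was lower in T cells (0 UMIs in holding cells), and of B cell markers Ighm was higher in NK cells (2.64-fold). Markers of fibroblasts or tumour cells, neutrophils, mast cells and dendritic cells had none past the fold, with at most 1 gene of each abundant enough in the NK and T gates. Summed, the dendritic markers were at 127.5 CPM in holding and 28.6 CPM in free Lyz2-icre NK cells, 4.46-fold (1.75 to 12.3), but at 0.450-fold (0.191 to 0.910) in Lyz2-icre T cells and 0.427-fold (0.126 to 1.16) in control NK cells, and their part in the contrast was not tested.

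The lowest genes of Spp1-holding T cells included genes of other T cell types. Il17a, the cytokine gene that led cluster 8, had 0 UMIs in holding and 177 in free cells. By UMIs that is at least 6.94-fold lower against 3 counts. Such limits take each UMI as independent and are too strong where the UMIs lie in few cells. Il17a had a UMI in 5.24% of the 458 free cells. Tmem176a, with a UMI in 13.1% of free cells, was at least 4.51-fold lower by UMIs. Il13, whose 95 UMIs lay in 1.09% of free cells, was at least 3.73-fold lower. By cells, 54 holding cells were too few to tell the groups apart for Il17a or Il13. Thbs1 and N4bp1 (at least 2.59-fold lower), Ltb4r1 (2.35), Vegfa (2.20) and Dennd5a, with 51 UMIs in free cells, also had 0 UMIs in holding T cells. Within CD8 T cells Thbs1, N4bp1, Vegfa and Dennd5a likewise had 0 UMIs in holding cells, against 27, 31, 34 and 35 in free cells. Thbs1 is also a phagocyte gene, and in control T cells it was 4.03-fold higher (2.88 to 5.64) in holding cells, the opposite side.

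The lowest genes of Spp1-holding NK cells rested on few UMIs. Ckb, a creatine kinase gene, had 0 UMIs in holding and 20 in free cells, at least 2.61-fold lower by UMIs. It had a UMI in 10% of free cells. Chd2, Slfn2, Sidt2, Iqgap2, Eif3j1, Sbds and Mettl26 each had 1 UMI in holding and 21 to 29 in free cells. Eif3j1, Sbds, Mettl26 and Chd2 crossed to ratios above 1 when cells were drawn to 3000 UMIs, so these names carry little weight. Of the 16 named genes lower in both gates, Arg1, Il1b, Tgfbi and Clec7a are genes of phagocytes, and Ccl5, Ikzf2, Jun and Zfp36 are expressed by lymphocytes.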

How the data were processed

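Single-cell RNA sequencing was done on sorted leukocytes of MC38 tumours, 1 library per genotype, with 8000 cells intended and at least 20000 reads per cell, per the labels' protocols. The deposited values are counts of UMIs per gene and cell that the authors made with Cell Ranger 8.0.1, per the file headers, on mm10 and after bcl2fastq 5.0.1, per the submitters' processing notes. The annotation release is not given in the sources used here.

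Cells were kept at 300 or more genes, 500 or more UMIs and at most 15% mitochondrial UMIs, which left 8724 and 13915 cells, with median depths of 9379.5 and 6374 UMIs. No doublet caller was run, and cells with RNA of 2 lineages were instead left out as an alternative. Levels are summed UMIs as CPM with exact Poisson intervals, ratios have conditional binomial intervals and shares Clopper-Pearson intervals, all at 95%. A share of 0 is given with the limit that 3 counts allow. For shares and contrasts each cell was drawn without replacement to 2000 UMIs, with 1 fixed seed. Leiden clusters (2000 variable genes without Spp1, 20 components, 15 neighbours, resolution 1) were made with scanpy 1.11.5, and the rest with Python 3.11.15, numpy 2.4.6, scipy 1.17.1 and pandas 2.3.3. The contrast was also run on simulated cells, drawn from a shared profile with 200 genes set 3-fold apart in randomly chosen holding cells. Such cells lack the uneven spread of UMIs between cells seen here, so the simulation cannot vouch for the genes called.

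Named genes are, per gate of the Lyz2-icre library, the 15 highest and 8 lowest ratios past the fold, leaving out mitochondrial, ribosomal, receptor-segment, sex-linked and unnamed genes, with up to 4 members per list. Other genes named in the text were chosen after their values were seen. Some genes that the rule names are not reported here. The gene, its cells and the 23 gene lists were chosen with earlier results of these data known. Alternatives were other gates, cell filters, sexes, depths of drawing, seeds and gene filters.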

Additional observations from a re-analysis of the deposited data

Results flagged for a closer look

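In the Lyz2-icre library 3 named genes were past the fold upwards in Spp1-holding T cells and downwards in Spp1-holding NK cells. The holding over free ratio of Ifng, interferon gamma, was 0.3025 in NK cells (63.7 against 210.7 CPM) and 1.839 in T cells (1002 against 544.8 CPM). Dbnl, which encodes an actin-binding adaptor, was at 0.4499 in NK and 1.632 in T cells. Gem, a small GTPase gene, was at 0.607 in NK and 1.523 in T cells. The difference between the gates was not tested. In the control library Ifng was at 1.24 and 1.28, Dbnl at 0.843 and 0.992 and Gem at 0.837 and 1.60 in NK and T cells, so Ifng lay above 1 in both control gates.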

How the results depend on the processing

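No paired analysis was possible because each genotype had 1 library. The share of Lyz2-icre cells holding Spp1 followed depth: in NK cells it was 36.75% at 3000 UMIs and 40.58% at full depth, and in T cells 6.966% at 1000 UMIs, 17.05% at 3000, 7.315% with no C1q gate and 13.95% in CD8 T cells. The ratio of Spp1 CPM between libraries moved as well. In NK cells it was 0.6651 with the C1q gate at 0.1%, 0.4649 with none, 0.475 with lineage gates at 3 UMIs, 0.7376 in female and 1.177 in male cells, 0.7605 as a mean over cells, 0.7312 without the 5 highest cells of each library, 0.8909 without cells holding macrophage RNA, 0.645 with Lyz2 not counted in that step and 0.8725 without clusters 5, 11 and 12, whose leading genes were those of phagocytes, dendritic or collagen-producing cells. In T cells these ratios were 0.84 with the C1q gate at 0.1%, 0.2543 with none, 0.445 in female and 1.532 in male cells, 0.8698 in CD8 T cells, 1.155 without cells holding macrophage RNA, 0.7734 with Lyz2 not counted in that step and 1.246 without those clusters. The cause was not tested.

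Counts of genes past the fold changed with these settings. Higher genes in NK cells numbered 22 in male cells, 24 at 1000 UMIs, 109 at full depth, 29 with holding set at 2 UMIs and 119 with genes kept at 10 CPM and 5 UMIs. Lower genes in NK cells numbered 177 with no C1q gate, 56 in female and 20 in male cells, 55 at 1000 UMIs and 267 at full depth. Higher genes in T cells numbered 121 with no C1q gate, 12 in male cells, 43 at 1000 UMIs, 176 at full depth, 198 with the lower gene filter and 49 in CD8 T cells. Lower genes in T cells numbered 25 in male cells, 85 at 1000 UMIs, 278 at full depth, 101 with holding set at 2 UMIs and 70 in CD8 T cells.

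The summed Gzmd to Gzmg ratio stayed above 1 in every setting run. In NK cells it was 7.404 with lineage gates at 3 UMIs, 11.46 in female and 21.3 in male cells, 14.96 at 1000 and 6.334 at 3000 UMIs, 27.69 at full depth, 16.1 with holding set at 2 UMIs and 6.235 without its 5 highest cells. In T cells it was 7.523 with the C1q gate at 0.1%, 11.07 with none, 1.855 in male cells, 7.724 at 1000 and 5.814 at 3000 UMIs, 6.989 with another seed, 6.118 at full depth, 6.775 in CD8 T cells, 11.39 without its 5 highest cells and 7.391 without those clusters. Single genes crossed 1 as follows: Sec62 in NK cells (0.7888 at 1000 UMIs, 0.8149 with another seed), Rexo2 (0.9696 at 3000 UMIs, 0.9229 at full depth), Chd2 (1.034 at 3000), Eif3j1 (1.361 at 3000, 1.167 at full depth), Sbds (1.313 at 3000) and Mettl26 (1.217 at 3000, 1.484 with another seed), and in T cells Gzmc (0.5432) and Rrm2 (0.8434) in male cells and H1f2 (0.8942 with another seed). Gzmg had no value in male NK cells or with another seed, where no free cell had a UMI.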

Other observations

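Most of the few Spp1 UMIs left in macrophages of the Lyz2-icre library lay in cells that also had lymphocyte transcripts. Most of the macrophages that held Spp1, however, had no such transcripts. Of 245 Spp1 UMIs, 177 (72.2%) were in the 324 macrophages (4.52%) with at least 2 UMIs of Cd3, granzyme or NK genes, where 11.4% (8.17% to 15.4%) of cells had Spp1 at full depth and its level was 54.2 CPM. In the 6445 macrophages with none of these UMIs the level was 1.22 CPM and 0.900% (0.684% to 1.16%) of cells had Spp1. By cells, 58 of the 101 macrophages with Spp1 had none of these lymphocyte UMIs, and 37 had 2 or more. The 5 macrophages with most Spp1 held 49.4% of its UMIs, with 50 in the highest. In the control library the level was 333.9 CPM in macrophages with at least 2 lymphocyte UMIs and 458.1 CPM in those with none.

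Some genes known from phagocytes, chosen after their values were seen, lay on opposite sides in the 2 libraries. Arg1, arginase, was at 0.283 in Spp1-holding over Spp1-free NK cells of the Lyz2-icre library and at 9.39 in the control library, and in T cells at 0.170 and 5.66. Tgfbi was at 0.363 in Lyz2-icre and 2.05 in control T cells, and Il1b at 0.270 and 1.54. Apoe in NK cells was below 1 in both, at 0.519 in the Lyz2-icre and 0.826 in the control library. Cells of the fibroblast or tumour gate, which Lyz2-icre should not reach, had Spp1 at 165.1 CPM in the control and 149.9 CPM in the Lyz2-icre library, a ratio of 0.908 (0.797 to 1.03). These levels rest on few cells: 5 cells held 58.1% and 69.9% of the UMIs, and 1 Lyz2-icre cell held 225 of 465. The share holding Spp1 was 38.7% and 25.1% at full depth. At 2000 UMIs it was 15.7% (10.7% to 21.9%) and 9.36% (6.15% to 13.5%), with overlapping intervals.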
